A study of Mus musculus with 6 samples.

Results

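Of 41 listed genes of the actomyosin and actin-binding machinery, 37 were measured among 17097 genes on 6 mouse expression arrays. A member was a listed gene with a probe set annotated to a single gene symbol, and the brightest such probe set, by mean over the 6 arrays, stood for the gene. The list was chosen by the signal of its genes in these same arrays, in particular by their level in the knockdown-labelled arrays against the others, so those differences are given as descriptions and carry no test. Actn4, Tagln, Tagln2 and Anxa3 were not analysed here, because no probe set on the array named them alone.

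The arrays were made from E14tg2a mouse embryonic stem cells (ESCs) and from the epiblast-like cells (EpiLCs) derived from them, which model the primed epiblast. The labels describe ESCs kept without feeders in serum and LIF. For EpiLC induction, the methods describe ESCs on laminin in N2B27 with LIF and inhibitors of GSK3 and MEK, and no source used here says which of these media the ESC array came from. EpiLCs were then induced on fibronectin with activin A, bFGF and serum replacement for 2 days, giving EpiLCs (d2). Replating in GK15, a medium with more serum replacement, gave EpiLCs (d4) without doxycycline and EpiLCs + PRDM14 where doxycycline switched on a piggyBac Prdm14 transgene. GK15 is based on Glasgow minimum essential medium in place of N2B27, and the methods list no activin A or bFGF in it. The replating step below therefore includes this change of medium. PRDM14 is a PR-domain regulator of naive pluripotency and germ cell specification. These 3 EpiLC arrays carried the scramble label, whereas KD EpiLCs (d2) and KD EpiLCs + PRDM14 were labelled Tet1/Tet2 KD, the knockdown being made with lentiviral short hairpins against a pair of enzymes that oxidise methylcytosine. The KD cells were one established line, and no knockdown array of replated cells without PRDM14 was analysed here, so that PRDM14 and the days after replating cannot be told apart in the KD pair. Each condition had 1 array, so no difference below has a replicate check or a p-value. A gene is called higher or lower where its log2 signal differed by at least 0.59, that is 1.5-fold, after the array medians were set equal.

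Actin monomers assemble into filaments that non-muscle myosin II pulls against each other. Tropomyosins, calponins and caldesmon coat the filament and set which myosins and severing proteins reach it, whereas cofilin, gelsolin, profilin and thymosins govern its turnover. Vinculin, zyxin and the LIM protein encoded by Lima1 tie or bundle filaments at adhesions, and the annexins and most S100 proteins are calcium-binding partners of this cortex. Many of these genes are known targets of serum response factor (SRF) with its actin-sensing partners, the MRTFs. In pluripotent cells, cortical tension and spreading are known to change as naive colonies flatten into primed epithelium.

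The labels were checked first on the targeted genes. Prdm14 gave a log2 signal of 6.88 in ESCs and between 4.84 and 5.11 in the 5 EpiLC arrays, with 4.87 in EpiLCs + PRDM14 and 4.84 in KD EpiLCs + PRDM14. The probe set was therefore not higher in the arrays labelled + PRDM14, and no source used here says whether it detects the transgene. Tet2 gave 8.64 in KD EpiLCs (d2) against 8.46 in EpiLCs (d2), and 7.90 in KD EpiLCs + PRDM14 against 8.44 in EpiLCs + PRDM14. Tet1 was not analysed here, so the knockdown is used below as a label. The deposited medians were 5.07 in both KD arrays and 5.28 to 5.29 in the other 4. Nanog, a core pluripotency factor, gave 10.25 in ESCs, 7.84 in EpiLCs (d2) and 10.18 in EpiLCs + PRDM14, and Otx2, an EpiLC marker, gave 6.45, 8.16 and 6.72.

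The actin cytoskeleton genes were for the most part bright. The median of the members' mean signals was 8.27, against 5.96 over all genes, and 32 of the 37 had a mean of at least 6. The 5 below that level were Cfl2, S100a4, Cnn1, Anxa1 and Gsn. Among the 37, 23 reached their highest signal in KD EpiLCs + PRDM14, a pattern found in 21% of all genes, and 19 had their lowest signal in EpiLCs (d2), as did 13.1% of all genes. No member was highest in EpiLCs (d2), and none was lowest in KD EpiLCs + PRDM14. The choice of the list by its KD level favours these patterns, so nothing is read from their counts.

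**Figure D1:**
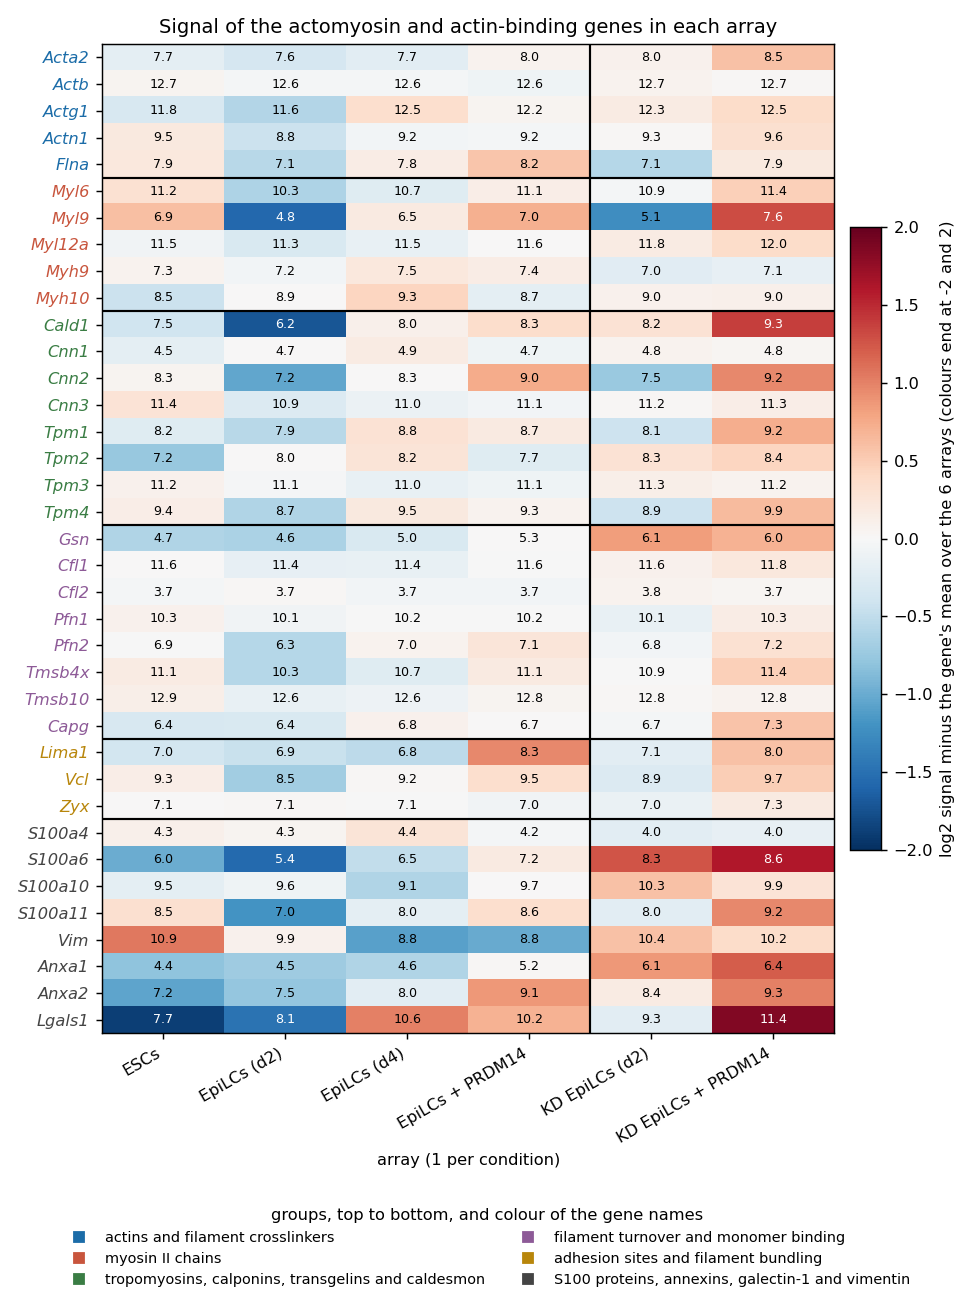
Log2 signal of the 37 measured genes (rows, in 6 groups by role) in the 6 arrays (columns), printed in each cell, with colour giving the difference from the gene's own mean over the arrays. EpiLCs (d2) holds the lowest value of 19 genes and KD EpiLCs + PRDM14 the highest of 23, and Lgals1 runs from 7.67 in ESCs to 11.41 in KD EpiLCs + PRDM14.

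The KD-labelled arrays were compared with their scramble counterparts at 2 stages, which share no array. In KD EpiLCs (d2), 9 of the 37 members were higher than in EpiLCs (d2), where 3.3% of all genes were, and 0 were lower, where 2.25% of all genes were. With PRDM14, 9 members were again higher, against 3.58% of all genes, and 0 lower, against 3.38%. The members' median difference was 0.31 at day 2 and 0.29 with PRDM14, and over all genes it was 0.03 and 0.01. Since this contrast chose the list, nothing is read from these shares. Among the bright genes alone, 7 of 32 members were higher in each comparison, where 3.47% and 3.55% of the 8396 bright genes were.

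S100a6 had the largest difference at both stages, followed by Cald1 at day 2 and by Vim with PRDM14. S100a6, a small EF-hand protein, had a log2 signal of 5.44 in EpiLCs (d2), 6.0 in ESCs, 6.51 in EpiLCs (d4), 7.17 in EpiLCs + PRDM14, 8.26 in KD EpiLCs (d2) and 8.60 in KD EpiLCs + PRDM14. Both KD arrays lay above the other 4, and the difference from scramble was 2.81 (7.03-fold) at day 2 and 1.42 (2.68-fold) with PRDM14. Anxa1, encoding a phospholipid-binding annexin, gave 4.41 in ESCs and 4.50, 4.62 and 5.24 in the scramble EpiLCs at day 2, day 4 and with PRDM14. It gave 6.08 in KD EpiLCs (d2) and 6.43 in KD EpiLCs + PRDM14, again above the rest, with differences of 1.58 and 1.19. S100a11, whose product pairs with annexin A1, did not separate the KD arrays in this way. Its signal was 7.03 in EpiLCs (d2), 8.54 in ESCs, 8.03 in EpiLCs (d4), 8.55 in EpiLCs + PRDM14, 8.02 in KD EpiLCs (d2) and 9.18 in KD EpiLCs + PRDM14. It was thus higher than its scramble counterpart at each stage, by 0.99 and 0.63, while KD EpiLCs (d2) overlapped the other arrays.

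The annexin A2 pair was higher in the KD array at day 2 and within 1.5-fold with PRDM14. Anxa2 gave 7.46 in EpiLCs (d2), 7.18 in ESCs, 8.03 in EpiLCs (d4), 9.11 in EpiLCs + PRDM14, 8.39 in KD EpiLCs (d2) and 9.25 in KD EpiLCs + PRDM14, so that the KD difference was 0.93 at day 2 and 0.14 with PRDM14. S100a10, its binding partner, gave 9.48 in ESCs, 9.59, 9.08 and 9.69 in the scramble EpiLCs at day 2, day 4 and with PRDM14, and 10.26 and 9.95 in the KD pair. The KD arrays were the highest pair for S100a10, by 0.68 at day 2 and 0.26 with PRDM14. S100a4, which binds non-muscle myosin heavy chain, was dim, between 3.98 and 4.45, and both KD arrays lay below the other 4. Lgals1, encoding the secreted lectin galectin-1, gave 8.07 in EpiLCs (d2), 7.67 in ESCs, 10.56 in EpiLCs (d4), 10.24 in EpiLCs + PRDM14, 9.34 in KD EpiLCs (d2) and 11.41 in KD EpiLCs + PRDM14. Its KD differences were close at the 2 stages, 1.27 and 1.17, but the replating step of the scramble cells was larger than either.

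Vim, the intermediate filament gene of mesenchymal cells, ran against most of the list. It gave 9.92 in EpiLCs (d2), 10.89 in ESCs, 8.82 in EpiLCs + PRDM14 and 8.75 in EpiLCs (d4), and 10.42 and 10.20 in KD EpiLCs (d2) and KD EpiLCs + PRDM14. The scramble cells thus lost Vim signal on replating, with and without PRDM14, and KD EpiLCs + PRDM14 kept most of the signal of KD EpiLCs (d2). The KD difference was 0.50 at day 2 and 1.38 with PRDM14. The other 2 Vim probe sets gave 0.20 and 0.60 at day 2 and 0.95 and 1.54 with PRDM14.

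Among the 8 measured filament-coating genes, Cald1 was the one past the threshold at both stages by its brightest probe set. Cald1 encodes caldesmon, which holds myosin off the tropomyosin-actin filament, and gave 6.21 in EpiLCs (d2), 7.53 in ESCs, 8.02 in EpiLCs (d4), 8.27 in EpiLCs + PRDM14, 8.21 in KD EpiLCs (d2) and 9.31 in KD EpiLCs + PRDM14. The KD difference was 2.00 (4.00-fold) at day 2 and 1.03 (2.05-fold) with PRDM14, and KD EpiLCs (d2) did not exceed EpiLCs + PRDM14. Of its 5 probe sets, the other 4 gave -0.13 to 0.65 at day 2 and -0.28 to 1.07 with PRDM14. Tpm2, beta-tropomyosin, gave 7.22 in ESCs, 7.99, 8.24 and 7.74 in the scramble EpiLCs at day 2, day 4 and with PRDM14, and 8.27 and 8.42 in the KD pair. Both KD arrays were the highest for Tpm2, by 0.28 over scramble at day 2 and 0.68 with PRDM14. The other Tpm2 probe sets ran from -0.01 to 0.68 at day 2 and from 0.17 to 0.82 with PRDM14. The dimmest of them, with a mean signal of 4.26, was past the threshold at both stages. By their brightest probe sets, the remaining coating genes (Cnn1, Cnn2, Cnn3, Tpm1, Tpm3 and Tpm4) differed by 0.07 to 0.31 at day 2 and by 0.12 to 0.56 with PRDM14. The other Tpm1 probe sets gave 0.30 and -0.11 at day 2, and 0.62 and -0.14 with PRDM14.

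Gelsolin was the turnover gene with the largest KD difference. Gsn, which severs and caps filaments in a calcium-dependent way, gave 4.64 in EpiLCs (d2), 4.67 in ESCs, 4.97 in EpiLCs (d4), 5.27 in EpiLCs + PRDM14, 6.10 in KD EpiLCs (d2) and 5.97 in KD EpiLCs + PRDM14. The KD arrays were the highest pair, by 1.47 at day 2 and 0.70 with PRDM14, although the signal was dim throughout. Of its 4 other probe sets, 3 were above scramble at both stages as well, by 0.60 to 2.31 at day 2 and by 0.40 to 1.42 with PRDM14, and the dimmest was flat. Capg, encoding a capping protein of the gelsolin family, gave differences of 0.27 and 0.57, the second just short of the threshold. Cfl1, Pfn1, Pfn2, Tmsb4x and Tmsb10, which sever filaments or bind monomers, ranged from -0.08 to 0.56 at day 2 and from 0.02 to 0.29 with PRDM14. The other Pfn2 probe set, with a mean signal of 6.41 against 6.87, was past the threshold at day 2 (1.36) and at 0.14 with PRDM14. The other Cfl1 probe set gave -0.35 at day 2 and -0.035 with PRDM14. Cfl2, muscle cofilin, was dim in all 6 arrays, between 3.66 and 3.79.

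Of the actin genes, Actb was flat by its brightest probe set and Actg1 was not. Actb, the cytoplasmic beta-actin, stayed between 12.58 and 12.73 in all 6 arrays on that probe set. The highest signal of any probe set on an array was 13.12 to 13.26 as deposited. The other Actb probe set ran from 11.55 in EpiLCs (d2) to 12.03 in KD EpiLCs (d2). Its KD differences were 0.47 at day 2 and 0.25 with PRDM14. Actg1, cytoplasmic gamma-actin, gave 11.57 in EpiLCs (d2), 11.85 in ESCs, 12.49 in EpiLCs (d4), 12.21 in EpiLCs + PRDM14, 12.32 in KD EpiLCs (d2) and 12.52 in KD EpiLCs + PRDM14. It was 0.74 higher in the KD array at day 2 and 0.31 higher with PRDM14, the first past and the second within the threshold. Acta2, smooth muscle alpha-actin, gave 7.60 to 8.0 in the 4 arrays without the KD label and 8.02 and 8.52 in the KD pair by its brightest probe set. The other Acta2 probe set was dim, with a mean signal of 4.22, and its KD differences were 0.12 at day 2 and -0.01 with PRDM14. Of the crosslinkers, Actn1 (alpha-actinin 1) was at 0.46 and 0.36 by its brightest probe set, and Flna (filamin A) at -0.02 and -0.36. The dimmer Actn1 probe sets gave -0.12 and -0.01 at day 2, and -0.12 and -0.07 with PRDM14.

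By their brightest probe sets, the myosin II light chain genes were above scramble at both stages and the heavy chain gene Myh9 was below it. Another Myl6 probe set gave 0.26 and 0.09, a dim one -0.14 and -0.10, and the dimmer Myl12a probe set -0.10 and -0.02. The light chain genes Myl6, Myl9 and Myl12a differed from scramble by 0.58, 0.32 and 0.47 at day 2 and by 0.34, 0.59 and 0.35 with PRDM14, all above 0, and of these 6 values the 0.59 of Myl9 was past the threshold. Myh9 was at -0.17 and -0.32, and the second heavy chain gene, Myh10, at 0.09 and 0.29. Both KD arrays gave the lowest 2 values of Myh9, 7.01 and 7.07, against 7.18 to 7.46 elsewhere. By their brightest probe sets, the adhesion genes Vcl (vinculin), Zyx (zyxin) and Lima1 differed by 0.42, -0.16 and 0.24 at day 2. With PRDM14 they differed by 0.15, 0.25 and -0.37, and all these values were within the threshold. The other Lima1 probe sets ran from -1.55 to 0.55 at day 2 and from -1.35 to -0.11 with PRDM14. The same probe set gave -1.55 and -1.35, past the threshold at both stages.

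**Figure D2:**
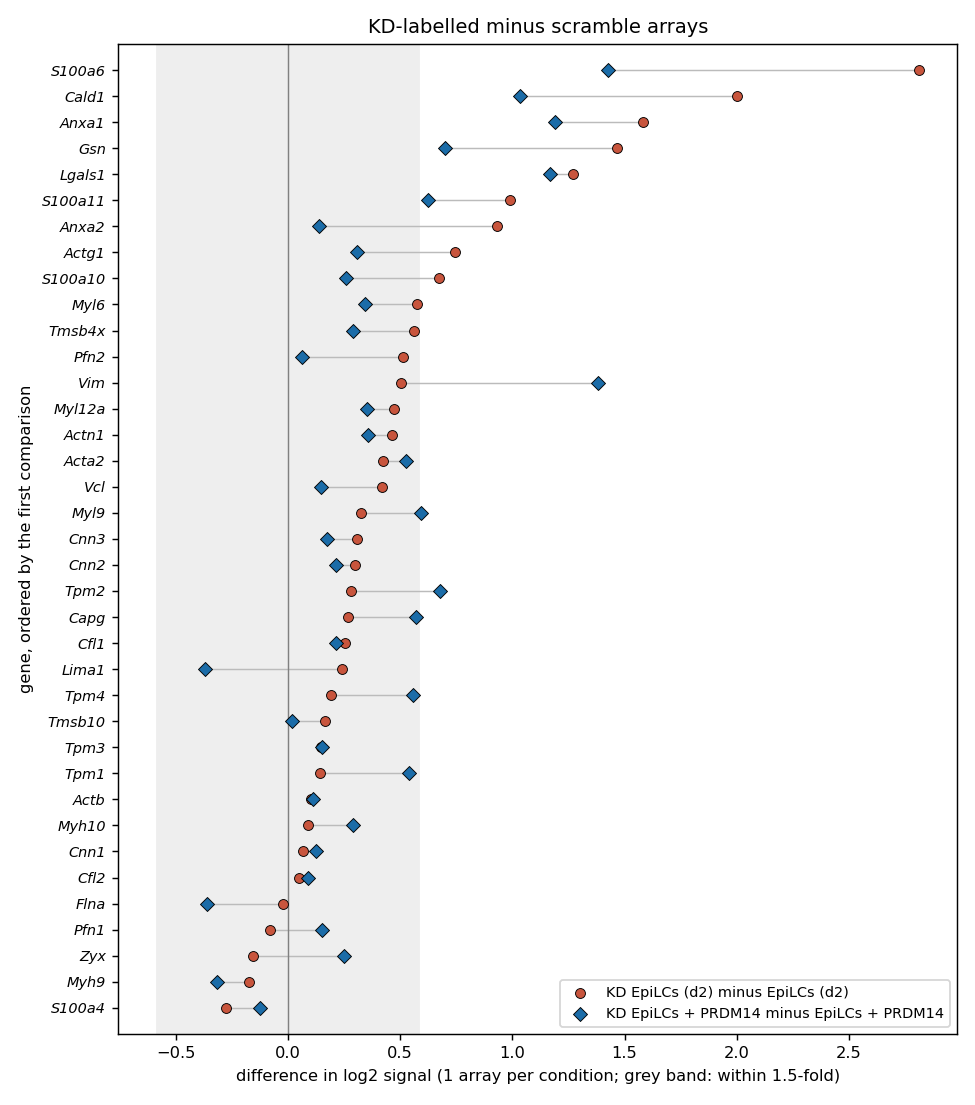
Difference in log2 signal (x axis) of each of the 37 genes (y axis) between KD-labelled and scramble arrays at day 2 (circles) and with PRDM14 (diamonds), 1 array per condition, with the grey band marking differences within 1.5-fold. S100a6, Cald1, Anxa1, Gsn, Lgals1 and S100a11 lie right of the band with both symbols, and 0 genes lie left of it.

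At the 1.5-fold threshold 6 genes were higher at both stages, namely Cald1, Gsn, S100a6, S100a11, Anxa1 and Lgals1, which is 66.7% of the 9 called at each. The KD difference was smaller with PRDM14 than at day 2 for 22 members and larger for 15. The members next to the threshold were S100a10 at 0.68 inside and Myl6 at 0.58 outside at day 2, and Myl9 at 0.59 inside and Capg at 0.57 outside with PRDM14. At 2-fold, 5 members were higher at each stage, where 0.497% and 0.69% of all genes were, and 0 were lower, where 0.216% and 0.439% were. Both KD arrays lay above all 4 others in 9 members and below them in 2, where 23.5% and 19.9% of all genes did, so the first share is near that of any gene on these arrays.

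The scaling of the KD columns bears on every small difference above. In the values as deposited, without equal medians, the members' median difference was 0.09 at day 2 and 0.07 with PRDM14, and over all genes -0.19 and -0.20. On that scale 24 and 21 of the 37 members were above 0, against 32 and 33 with equal medians. Members past the threshold were then 7 at day 2 (Cald1, Gsn, S100a6, S100a11, Anxa1, Anxa2 and Lgals1) and 5 with PRDM14 (Cald1, S100a6, Vim, Anxa1 and Lgals1), and 0 were lower. Of all genes, 1.12% were higher and 7.46% lower at day 2 on that scale, and 1.41% and 9.58% with PRDM14. Actb, Tpm3 and Myh10 at day 2 are examples of members whose sign turned, from 0.10, 0.15 and 0.09 to -0.11, -0.07 and -0.12.

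Markers of other cells that a culture could hold were read beside these differences, and since the RNA came from whole cultures, more cells of a type and more RNA per cell cannot be told apart. Of 17 primitive and parietal endoderm markers, 5 were higher and 0 lower in KD EpiLCs (d2), and 7 and 0 with PRDM14, led by the keratins Krt18 (1.10 and 2.26) and Krt8 (1.44 and 1.85) and the basement membrane collagen Col4a1 (1.04 and 0.89). The mean log2 signal of that list was 6.04 to 6.51 in the 4 arrays without the KD label and 6.40 and 6.77 in the KD pair. Among the transcription factors of that list, Gata4 stayed between 4.90 and 5.07 and Sox17 between 5.01 and 5.50. Gata6 was at 6.18 and 5.90 in the KD arrays, against 5.66 to 5.78 in the other 4. Sox7 was dim, but both KD arrays (4.46 and 4.38) lay above the other 4 (3.96 to 4.13). Foxa2 differed from scramble by -0.26 and -0.20, and Hnf4a by -0.08 and 0.01. Dab2, another marker of that list, was at 0.44 and 0.76, the second past the threshold. Of 22 fibroblast and mesenchyme markers, 3 were higher and 0 lower at day 2, and 2 higher and 1 lower with PRDM14. The transcription factor gene Zeb1 (1.03 and 1.22) and the collagen gene Col6a1 (0.80 and 0.90) were higher at both stages, and both KD arrays lay above the other 4 for each. Thy1 was higher at day 2 (0.67), and Col3a1 was at -0.47 and -0.72. The list's mean was 5.16 to 5.22 without the KD label and 5.31 and 5.26 in the KD pair, while Col1a1 stayed between 3.91 and 4.04 and Col1a2 between 3.39 and 3.66 in all 6 arrays. The trophoblast list had 0 of 9 higher at day 2 and 2 with PRDM14, with Krt7 at 0.44 and 1.15, Ascl2 at 0.16 and 0.87 and Tead4 at 0.51 and 0.35. The 11 housekeeping genes without actin had 0 called at either stage, with Pgk1 at -0.13 and -0.51, Ywhaz at 0.27 and 0.35 and Eef1a1 at 0.12 and 0.13. The difference between the array's 3′ and 5′ control probe sets for beta-actin was 0.66 in KD EpiLCs (d2) and 0.41 to 0.47 in the other 5 arrays. The part of these markers and of RNA quality in the KD differences was not tested.

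In the scramble cells, EpiLCs + PRDM14 was compared with EpiLCs (d2). Of the 37 members, 18 were higher, where 2.72% of all genes were, and 1 (Vim) was lower, where 1.91% were, with a median difference of 0.40. The same comparison in the KD-labelled pair gave 12 higher, against 2.12% of all genes, and 0 lower, against 2.53%, with a median of 0.32. Without PRDM14, EpiLCs (d4) against EpiLCs (d2) gave 12 higher and 1 (Vim) lower, against 2.18% and 1.12% of all genes, with a median of 0.32. ESCs against EpiLCs (d2) gave 11 higher and 1 (Tpm2) lower, against 2.64% and 2.35%, with a median of 0.18. These arrays' comparisons with EpiLCs (d2) share that 1 array, so a low reading there would raise all of them, and they are given side by side and not as support for each other. The list was chosen for its level in the KD arrays against the others, EpiLCs (d2) among them. That choice by itself favours members with a low EpiLCs (d2) signal, so nothing is read from the shares against that array. In EpiLCs + PRDM14 against EpiLCs (d2), 3 of the 17 endoderm markers (Sparc at 1.34, Lamb1 at 0.94 and Krt8 at 0.70) were higher and 0 lower, and 0 of the 22 fibroblast markers were higher and 1 lower. More endoderm markers moved in EpiLCs (d4) against EpiLCs (d2), where 6 of 17 were higher and 0 lower (Krt8 at 2.09, Krt18 at 1.40 and Krt19 at 1.37 among them), and in the KD pair, again 6 and 0 (Krt19 at 1.53, Krt18 at 1.35 and Krt8 at 1.11 among them). In ESCs against EpiLCs (d2), 2 were higher and 2 lower. Of 9 epithelial markers, 5 were lower and 2 higher in the KD pair, with a median of -0.59, against 2 lower and 1 higher in scramble cells with PRDM14, 0 and 2 in EpiLCs (d4), and 4 and 0 in ESCs. The part of these markers in the members' differences was not tested.

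**Figure D3:**
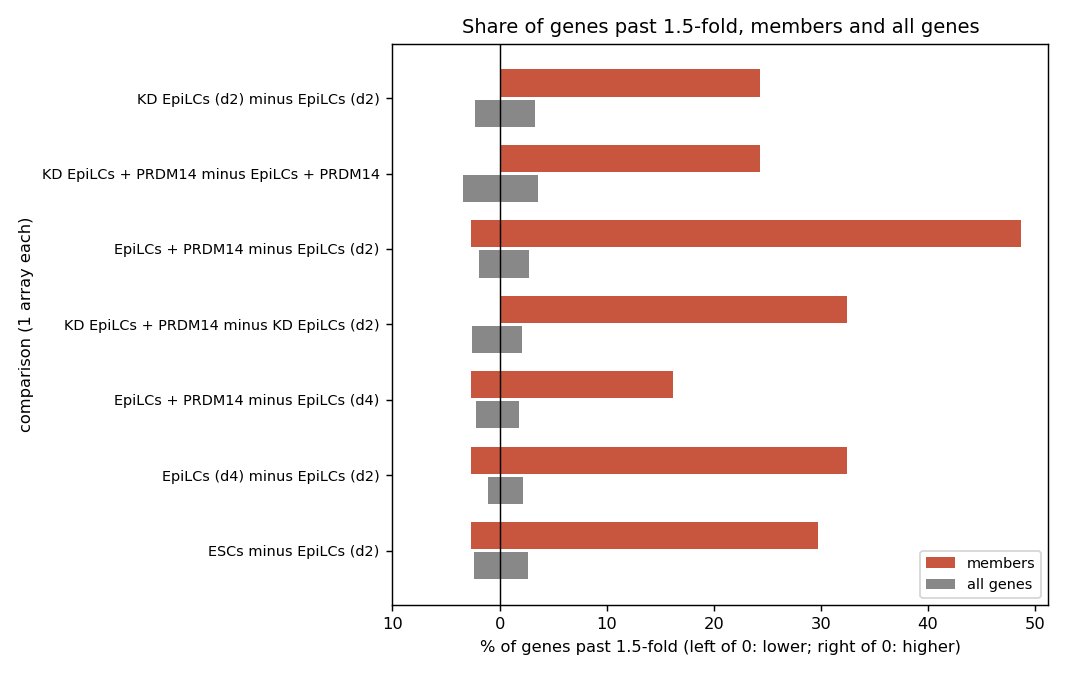
Percentage of genes past 1.5-fold (x axis, lower to the left of 0 and higher to the right) in each of the 7 comparisons (y axis), for the 37 members and for all 17097 genes, 1 array per condition. In EpiLCs + PRDM14 minus EpiLCs (d2), 18 members were higher and 1 lower, against 2.72% and 1.91% of all genes.

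The regulatory light chain gene Myl9 had the widest swing of the myosin chains. Its product is the subunit whose phosphorylation switches on the myosin motor, and it gave 4.77 in EpiLCs (d2), 6.94 in ESCs, 6.52 in EpiLCs (d4), 7.05 in EpiLCs + PRDM14, 5.10 in KD EpiLCs (d2) and 7.64 in KD EpiLCs + PRDM14. The day 2 arrays were the lowest pair whatever the knockdown label, and the rise to the + PRDM14 arrays was 2.27 (4.84-fold) in scramble and 2.54 (5.83-fold) in KD cells. The essential light chain gene Myl6 followed a shallower course, with 10.31 in EpiLCs (d2), 11.22 in ESCs, 10.68 in EpiLCs (d4), 11.05 in EpiLCs + PRDM14, 10.89 in KD EpiLCs (d2) and 11.40 in KD EpiLCs + PRDM14. Myl12a, the other regulatory light chain gene, differed by 0.32 and 0.20 in these comparisons, and the heavy chain genes Myh9 and Myh10 by 0.21 and 0.06 and by -0.19 and 0.00.

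By their brightest probe sets, calponin 2 and tropomyosins 1 and 4 were higher in the replated arrays than at day 2. On the same basis their paralogs did not pass the threshold. Cnn2 gave 7.23 in EpiLCs (d2), 8.32 in ESCs, 8.28 in EpiLCs (d4), 9.01 in EpiLCs + PRDM14, 7.53 in KD EpiLCs (d2) and 9.23 in KD EpiLCs + PRDM14, again with the day 2 arrays lowest. Its rise from day 2 to the + PRDM14 array was 1.78 in scramble and 1.69 in KD cells, whereas Cnn3 gave 0.23 and 0.10 and the dim Cnn1 -0.08 and -0.02. Tpm1 gave 7.92 in EpiLCs (d2), 8.23 in ESCs, 8.75 in EpiLCs (d4), 8.65 in EpiLCs + PRDM14, 8.06 in KD EpiLCs (d2) and 9.19 in KD EpiLCs + PRDM14. Tpm4 gave 8.66, 9.39, 9.46, 9.34, 8.85 and 9.90 in the same order, so that both tropomyosins were lowest at day 2 under each label. Tpm2 and Tpm3 differed by -0.25 and -0.06 in scramble and by 0.15 and -0.05 in KD cells. A dimmer Tpm3 probe set, with a mean signal of 8.04, gave 0.00 in scramble and 0.64 in KD cells, the second past the threshold. Cald1 was 2.06 and 1.10 higher in the + PRDM14 arrays of the scramble and KD pair.

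Vinculin and filamin A were higher in the replated arrays than at day 2, in scramble cells with and without PRDM14. Zyxin did not pass the threshold. Vcl gave 8.49 in EpiLCs (d2), 9.32 in ESCs, 9.21 in EpiLCs (d4), 9.53 in EpiLCs + PRDM14, 8.91 in KD EpiLCs (d2) and 9.68 in KD EpiLCs + PRDM14. Its rise from day 2 to the + PRDM14 array was 1.04 in scramble and 0.77 in KD cells. Flna gave 7.14, 7.91, 7.84, 8.25, 7.12 and 7.89 in the same order, a rise of 1.11 and 0.77. The day 2 arrays were the lowest pair for both genes. Zyx, which gathers at strained adhesions, differed by -0.08 and 0.32 and stayed between 6.96 and 7.28 in all 6 arrays.

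Lima1 separated the + PRDM14 arrays from the other 4. Its product, EPLIN, crosslinks filaments and slows their depolymerisation, and it gave 6.91 in EpiLCs (d2), 6.99 in ESCs, 6.84 in EpiLCs (d4), 8.32 in EpiLCs + PRDM14, 7.15 in KD EpiLCs (d2) and 7.95 in KD EpiLCs + PRDM14. Both + PRDM14 arrays were the highest, by 1.48 (2.79-fold) over EpiLCs (d4), 1.41 over EpiLCs (d2) and 0.80 within the KD pair. Of the 4 other Lima1 probe sets, 2 gave 1.44 and 1.47 against EpiLCs (d4), and the other two gave 0.41 and 0.04. The probe sets disagreed on the KD label at day 2, where they ran from -1.55 to 0.55. With PRDM14 they were all below scramble, from -1.35 to -0.11.

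EpiLCs (d4) was the scramble array replated without PRDM14, and against it EpiLCs + PRDM14 was higher in 6 members, where 1.86% of all genes were, and lower in 1, where 2.17% were, with a median difference of 0.14. The higher genes were Lima1 (1.48), Anxa2 (1.08), Cnn2 (0.73), S100a6 (0.66), Anxa1 (0.62) and S100a10 (0.61), and Myh10, encoding non-muscle myosin heavy chain IIB, was lower at -0.62. Myh10 gave 8.91 in EpiLCs (d2), 8.47 in ESCs, 9.33 in EpiLCs (d4), 8.71 in EpiLCs + PRDM14, and 9.0 in each KD array. Of the genes that led the comparison with EpiLCs (d2), Myl9 (0.53), Cald1 (0.25) and Lgals1 (-0.31) were within 1.5-fold of EpiLCs (d4). The values next to the threshold here were 0.61 for S100a10 inside and 0.53 for S100a11 outside.

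**Figure D4:**
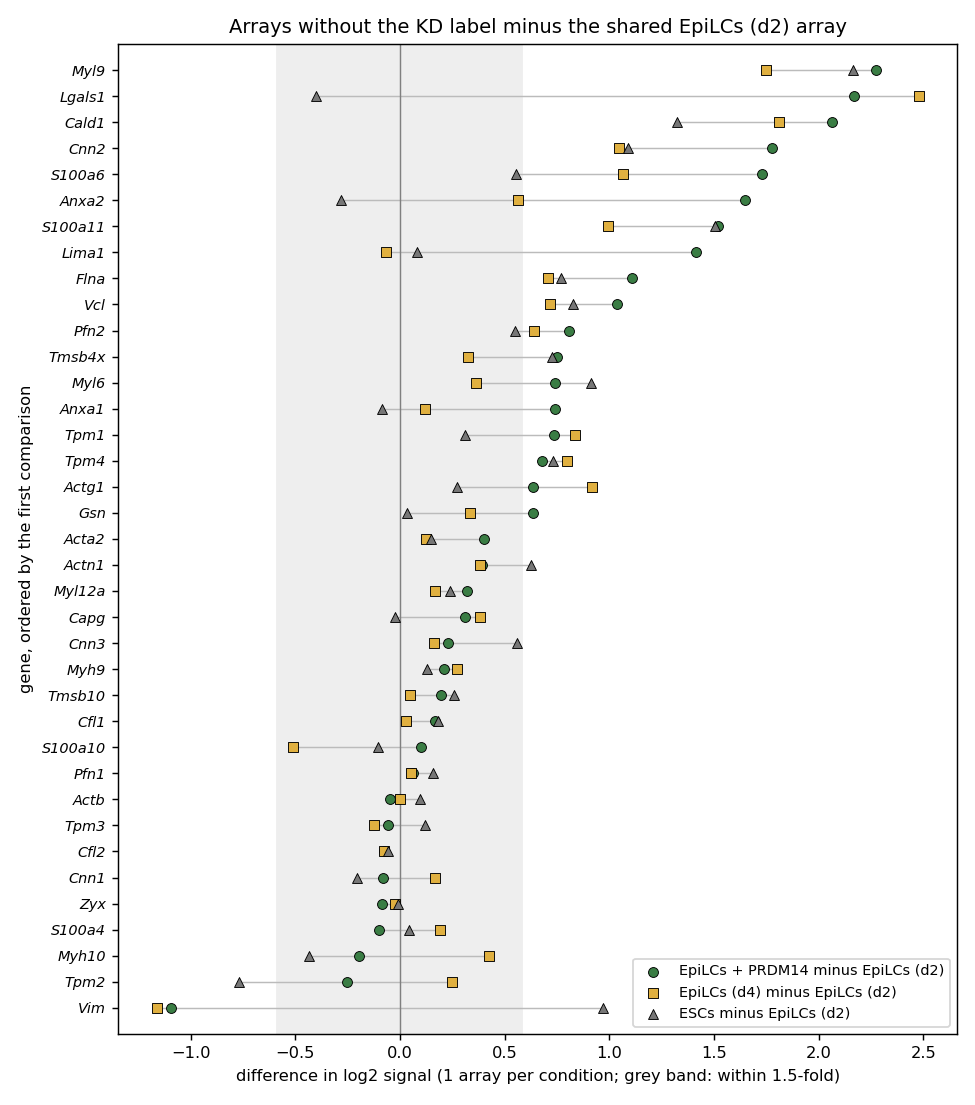
Difference in log2 signal (x axis) of each of the 37 genes (y axis) from the EpiLCs (d2) array for EpiLCs + PRDM14 (circles), EpiLCs (d4) (squares) and ESCs (triangles), all against the same 1 array, with the grey band marking differences within 1.5-fold. Lima1 lies at 1.41 with PRDM14 and at -0.06 and 0.08 in the other two, and Vim is higher in ESCs (0.97) and lower in both replated arrays (-1.16 and -1.09).

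The response of the KD-labelled pair minus that of the scramble pair is, by its arithmetic, the same quantity as the change in the KD difference between day 2 and PRDM14 given above, and it was not tested. Of the 18 genes called in scramble cells and the 12 in KD cells, 11 were shared, which is 61.1% and 91.7% of the lists. The responses of S100a6, Cald1, Anxa2 and Gsn in the KD pair minus those in the scramble pair were -1.39, -0.96, -0.79 and -0.77, and their KD differences at day 2 were 2.81, 2.00, 0.93 and 1.47. Both quantities contain the same day 2 arrays with opposite sign, and the list was chosen for a high KD level, so that a smaller response from a higher start is built into them. Lgals1 rose by 2.17 in scramble and 2.06 in KD cells. Vim differed most in the other direction, falling by 1.09 in scramble cells and by 0.22 in KD cells.

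Of the 11 genes that were higher in ESCs than in EpiLCs (d2), Myl9 (2.16), S100a11 (1.51), Cald1 (1.32), Cnn2 (1.09), Vim (0.97), Myl6 (0.91) and Vcl (0.83) had the largest differences. Lgals1, Anxa2 and Anxa1 were at -0.40, -0.28 and -0.08, within the threshold. Tpm2, at -0.77, was the member that was lower in ESCs. Across all 7 comparisons, 13 of the 37 members never passed 1.5-fold: Acta2, Actb, Myl12a, Myh9, Cnn1, Cnn3, Tpm3, Zyx, Cfl1, Cfl2, Pfn1, Tmsb10 and S100a4.

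The promoter windows of the members were read for the CArG box, the site that SRF binds, a search chosen after the values had been seen. A window ran from 250 bases before to 50 after a RefSeq start site (GRCm38.p6), and 34 of the 37 members had one, Actb, S100a10 and Lgals1 being the exceptions. The box, searched on both strands, was found in 6 of the 34 members (17.6%), against 1.65% of the 13605 array genes with a window, 1.81% of all genes and 1.63% of all windows. It was read as CC, then 6 letters that are each A or T, then GG, and sites departing from this were not counted. The 6 promoters are shown because all 6 genes were higher in EpiLCs + PRDM14 than at day 2. Each stretch lies upstream of the start site and is written 5′ to 3′ on the strand of the gene, with the box in capitals.
Myl9 (chr2:156775258-156775357, plus strand): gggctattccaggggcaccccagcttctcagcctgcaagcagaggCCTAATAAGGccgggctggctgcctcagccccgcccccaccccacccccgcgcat
Cnn2 (chr10:79988499-79988598, plus strand): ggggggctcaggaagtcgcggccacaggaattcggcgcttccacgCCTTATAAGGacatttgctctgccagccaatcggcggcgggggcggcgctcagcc
Lima1 (chr15:99820150-99820241, minus strand): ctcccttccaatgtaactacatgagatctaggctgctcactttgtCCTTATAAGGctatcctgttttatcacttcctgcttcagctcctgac
Vcl (chr14:20929148-20929225, plus strand): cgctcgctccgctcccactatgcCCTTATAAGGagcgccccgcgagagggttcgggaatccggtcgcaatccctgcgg
Myl6 (chr10:128493010-128493104, minus strand): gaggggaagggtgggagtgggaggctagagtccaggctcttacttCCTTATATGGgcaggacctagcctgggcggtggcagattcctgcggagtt
Actg1 (chr11:120348531-120348630, minus strand): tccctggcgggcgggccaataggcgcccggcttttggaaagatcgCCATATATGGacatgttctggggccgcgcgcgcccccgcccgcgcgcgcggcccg
The box began 161 bases before the start site in Myl9, 56 in Cnn2, 47 in Lima1, 227 in Vcl, 50 in Myl6 and 90 in Actg1. Cnn2, Lima1 and Vcl held the same box letters.

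All 6 genes with a box were past 1.5-fold in EpiLCs + PRDM14 against EpiLCs (d2), from 0.64 (Actg1) to 2.27 (Myl9) with a median of 1.23, as were 11 of the 28 members with a window and no box, whose median was 0.31. In the KD pair 4 of the 6 and 7 of the 28 were past the threshold, with medians of 0.79 and 0.29. EpiLCs (d4) against EpiLCs (d2), without PRDM14, gave 4 of 6 and 7 of 28, with medians of 0.82 and 0.26, and ESCs against EpiLCs (d2) gave 4 of 6 and 7 of 28, with medians of 0.87 and 0.17. In EpiLCs + PRDM14 against EpiLCs (d4) the numbers were 2 of 6 and 3 of 28, and the medians 0.45 and 0.07. For the KD label they were 1 of 6 and 6 of 28 at day 2, with medians of 0.37 and 0.27, and 1 of 6 and 7 of 28 with PRDM14, with medians of 0.26 and 0.29. A match is a description of letters in this window, and the counts carry no test. The comparisons with EpiLCs (d2) share that array, and the choice of the list favours a low signal there. Nothing is therefore read from the shares against it. Members without an exact box may still hold a site that SRF binds, so the split does not separate SRF targets from the rest.

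**Figure D5:**
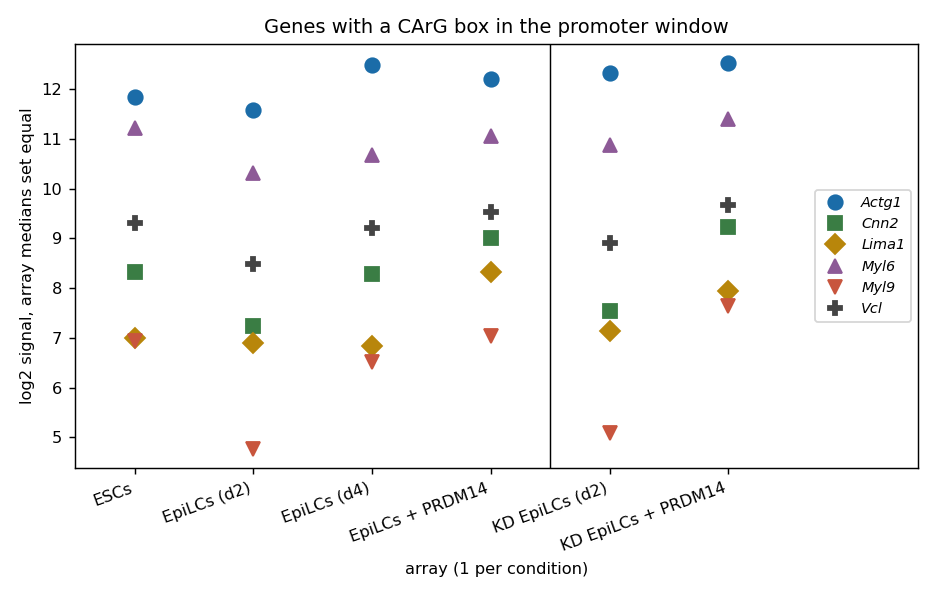
Log2 signal (y axis, array medians set equal) of the 6 genes with a CArG box in the promoter window, in each of the 6 arrays (x axis, 1 per condition). All but Lima1 have their lowest value in EpiLCs (d2), from 4.77 for Myl9 to 11.57 for Actg1, and Lima1 is highest in EpiLCs + PRDM14 at 8.32.

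Other genes of the same machinery were read from lists of the pathway. Of 17 SRF and MRTF regulators and other targets, 4 were higher and 0 lower in KD EpiLCs (d2), and 5 and 0 with PRDM14. The matricellular genes Ccn1 (1.25 and 1.23) and Ccn2 (1.14 and 0.45) and the immediate early gene Egr1 (0.98 and 1.07) led these differences, with Fhl2 (0.65 and 0.79), a LIM-domain cofactor gene, beside them. Srf itself was at 0.46 and 0.65, and the remaining call was Amotl2 at 0.65 with PRDM14. In EpiLCs + PRDM14 against EpiLCs (d2), 2 of the 17 were higher (Fhl1 at 1.32 and Ccn2 at 1.11) and 0 lower. Of 13 genes of the Arp2/3 complex, which nucleates branched filaments, and its activators, 0 were called at day 2, and 1 was higher (Arpc5, 0.61) and 1 lower (Wasf1, -0.59) with PRDM14. Cttn, encoding the branch stabiliser cortactin, was at 0.43 and 0.35, and Arpc2 at 0.20 and 0.46. Of 28 other actin-binding and capping genes, 2 were higher and 0 lower at day 2, and 2 and 2 with PRDM14. Cotl1, encoding a coactosin-like actin-binding protein, was higher at both stages (1.12 and 1.44), and Palld, encoding the scaffold palladin, was at -0.30 and -0.77. The other calls were Pls3 (0.70) at day 2, and Tmod3 (0.65) and Twf2 (-0.65) with PRDM14. In EpiLCs + PRDM14 against EpiLCs (d2), 7 of the 28 were higher and 1 lower, led by Pls3 (1.44), which encodes the bundler plastin 3, and Wdr1 (1.03), a cofactor of cofilin, with the bundler gene Fscn1 at -0.77. The Arp2/3 list had 0 calls in that comparison. Of 14 integrin adhesion genes, 2 were higher at day 2, Fermt2 (0.72) and Itgav (0.78), and 0 with PRDM14, and Itga6 was at 0.35 and 0.52. Of 13 muscle markers, 1 and 2 were higher in the KD arrays at day 2 and with PRDM14 and 0 lower, with Mylpf at 1.14 and 0.67, Myh11 at -0.35 and -0.43 and Myocd at 0.28 and 0.29. Of 9 epithelial markers, 1 was higher at each stage, with 0 and 1 lower. Ocln was at 0.72 and 0.31, Cldn7 at -0.30 and 1.09, and the splicing factor gene Esrp1 at -0.46 and -1.16. Of 16 pluripotency markers, 2 and 1 were higher, with 0 and 1 lower. Klf4 was at 1.06 and 1.81, Nanog at 1.07 and 0.23 and Otx2 at -0.18 and -0.91.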

How the data were processed

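Total RNA of 6 conditions was labelled with a 3′ kit and hybridised to Affymetrix MG-430 PM arrays, 1 per condition. As deposited, each value is a log2 signal from the RMA step of Affymetrix Expression Console, run by the authors; its version, and whether all columns were normalized together, are not given in the sources used here. Control probe sets (104 of 45141) were left out. Each array's median was subtracted and the mean of the 6 medians, 5.21, added back. Of 45037 probe sets, 28898 had 1 gene symbol, 551 several and 15588 none in the platform annotation, and the brightest probe set stood for each of 17097 genes. The named genes were all measured members, the 3 genes of each of 12 other lists with the largest mean KD difference, markers a sentence needs, and Prdm14, Tet1 and Tet2. One of the 12 lists, with its genes, is not reported here. Genes outside this rule (Srf, Fhl1, Fhl2, Amotl2, Wasf1, Pls3, Twf2, Wdr1, Fscn1, Thy1, Krt19, Sparc and Lamb1) were named after their values were seen. So were the endoderm markers Sox7, Foxa2, Hnf4a and Dab2. Members and lists were chosen with earlier results of these data known. With 1 array per condition no test was run. The number of arrays limits the precision. The steps were tested on simulated data. Alternatives were quantile normalization, values as deposited, the mean of all probe sets, no _s_ or _x_ probe sets, a mean signal of at least 6, and a 2-fold threshold. Python 3.11.15, numpy 2.4.6 and pandas 2.3.3 were used.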

Additional observations from a re-analysis of the deposited data

Results flagged for a closer look

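Gsn was past 1.5-fold in one pair of arrays and on the other side of 0 in the other pair. In EpiLCs + PRDM14 its signal exceeded that of EpiLCs (d2) by 0.63, and the difference was -0.13 in KD EpiLCs + PRDM14 against KD EpiLCs (d2), so the response in the KD-labelled pair minus that in the scramble pair was -0.77. The difference was not tested, as each condition had 1 array. The opposite sign belonged to the brightest Gsn probe set: the other 4 gave -0.01 to 1.35 in the scramble pair and -0.03 to 0.67 in the KD pair, where 3 of them rose.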

How the results depend on the processing

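Of 104 values recomputed under the alternatives, 92 stayed within 0.1 (medians, log2) or within 1.5 times (counts) of the value given, and 12 moved. In no case did a median change sign. With the values as deposited, the members' median KD difference was 0.0923 at day 2 and 0.0745 with PRDM14, 5 members were higher with PRDM14, and 4 members had both KD arrays above the 4 others and 4 below. This setting keeps the lower medians of the KD columns, which is how the values came to fall. At 2-fold, 5 members were higher in the KD array at day 2 and 5 with PRDM14. The mean over all probe sets left 0 members lower in ESCs than in EpiLCs (d2). Without _s_ or _x_ probe sets, which left 34 members, 1 member was lower in KD EpiLCs + PRDM14 than in EpiLCs + PRDM14, and the median for EpiLCs + PRDM14 minus EpiLCs (d2) was 0.5127. With a mean signal of at least 6, which left 32 members, that median was 0.5183 and 1 member had both KD arrays below the 4 others. Quantile normalization gave 9 and 10 members higher in the KD arrays, including the 9 called at each stage. No paired analysis was possible because each condition had 1 array. Bright genes such as Actb and dim ones such as Cfl2, Cnn1 and S100a4 lie where array signals compress, so small changes in them may not be seen.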
